A study of Homo sapiens with 6 samples.

Results

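Translation initiation and elongation factor genes were examined in 6 PAR-CLIP libraries of hnRNP A1. The set was a list of 50 genes, chosen by name with earlier results of these data known. A cluster, a called binding site, was assigned to one of them when the gene was that of the nearest transcription start in the deposited annotation and the cluster overlapped the body of that gene on its own strand. This rule gave 28 of 16269 clusters, in 15 of the 50 genes, and they merged into 19 sites. By the same rule 17.1% of 20098 protein-coding genes had a cluster in any library. The nearest start named 42 clusters in all, of which 14 lay outside the gene. A wider count, over every cluster in the body of a listed gene whatever its nearest start, gave 43 clusters, 29 sites and 18 genes, against 23% of protein-coding genes, and it is named as the gene-body count below.

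PAR-CLIP marks the RNA sites that a protein touches in living cells. The cells take up 4-thiouridine, ultraviolet light cross-links it to the protein, and the cross-linked base is read as C in place of T. The cells were HEK293T, an established human embryonic kidney line, transiently expressing myc-tagged hnRNP A1 from a plasmid beside the cells' own protein, and complexes were recovered with an anti-myc antibody. RNA came from the monomer band of the WT protein (A1) and from a slower WT band (A1-HMW), possibly a dimer according to the paper. It also came from the monomer band of a mutant with the substitutions R75D and R88D (A1dm), with 2 libraries for each band. The libraries held 5805 and 8100 clusters for A1, 671 and 865 for A1-HMW, and 232 and 596 for A1dm. The score deposited with each cluster was 0 throughout, so these lists give no read depth. The study's supplement holds a cluster table of its own with read numbers, called with another tool (PARalyzer), which was not analysed here. The paper reports more peaks for each band than these lists hold. The absence of a cluster from a short list does not show that the site was unbound. No measure of RNA level accompanied the lists, and more binding of a transcript cannot be told apart from more of that transcript.

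Translation starts when the cap-binding protein EIF4E, the scaffold EIF4G1 and the helicase EIF4A1 bring an mRNA to the small ribosomal subunit, to which the EIF3 complex and the EIF2 complex with the initiator tRNA are bound. EIF5 and EIF5B then drive start-codon recognition and joining of the large subunit, and EEF1A1 and EEF2 carry elongation. HnRNP A1 is a mostly nuclear protein of pre-mRNA known for its role in alternative splicing, and it binds short motifs around an AG core.

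Sequences of the sites found in more than 1 library, and of those in exons other than a UTR site given further on, show what the clusters had in common and where they differed. Each line gives the RNA-sense strand of the reference genome (hg19) in the 5′ to 3′ direction, with the merged site in capitals and its flanks in lower case. Coordinates are those of the capitals.
EIF4G1 coding exon 10, chr3:184039795-184039821, plus strand: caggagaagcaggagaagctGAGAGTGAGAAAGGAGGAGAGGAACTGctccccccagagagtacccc
EIF4G1 intron 32, chr3:184052074-184052096, plus strand: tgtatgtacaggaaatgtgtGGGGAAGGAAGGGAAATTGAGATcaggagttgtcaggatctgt
EIF4G3 intron 14, chr1:21250266-21250293, minus strand: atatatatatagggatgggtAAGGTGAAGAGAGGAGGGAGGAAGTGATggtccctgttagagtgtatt
EIF4G3 intron 2, chr1:21493818-21493840, minus strand: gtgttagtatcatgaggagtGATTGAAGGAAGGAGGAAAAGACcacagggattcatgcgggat
EIF2S1 intron 4, chr14:67844926-67844950, plus strand: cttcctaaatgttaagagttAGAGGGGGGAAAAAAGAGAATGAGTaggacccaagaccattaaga
EIF5B intron 17, chr2:100007734-100007760, plus strand: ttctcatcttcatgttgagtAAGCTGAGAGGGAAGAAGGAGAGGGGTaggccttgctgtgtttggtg
EEFSEC intron 2, chr3:127973445-127973471, plus strand: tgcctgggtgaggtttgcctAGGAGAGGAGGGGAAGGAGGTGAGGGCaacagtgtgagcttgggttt
EEFSEC intron 6, chr3:128091990-128092011, plus strand: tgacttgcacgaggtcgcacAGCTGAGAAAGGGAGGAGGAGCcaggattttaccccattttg
EIF4E intron 1, chr4:99849814-99849838, minus strand: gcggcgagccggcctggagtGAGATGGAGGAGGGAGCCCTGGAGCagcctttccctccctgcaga
EIF3A coding exon 20, chr10:120797927-120797949, minus strand: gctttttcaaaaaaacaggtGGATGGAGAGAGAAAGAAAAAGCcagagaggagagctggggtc
EIF5B coding exon 4, chr2:99978116-99978139, plus strand: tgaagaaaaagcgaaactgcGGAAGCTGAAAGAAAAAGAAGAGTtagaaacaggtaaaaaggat
EIF5 end of coding exon 8, chr14:103805228-103805250, plus strand: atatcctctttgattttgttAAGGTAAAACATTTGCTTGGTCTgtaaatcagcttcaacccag
EIF3F retained-intron exon, chr11:8011710-8011734, plus strand: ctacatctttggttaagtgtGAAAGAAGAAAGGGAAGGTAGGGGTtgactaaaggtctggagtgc
EEF1A2 retained-intron exon, chr20:62121746-62121767, minus strand: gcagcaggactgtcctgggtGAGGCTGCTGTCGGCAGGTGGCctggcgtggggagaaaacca
EIF4A2 exon shared with SNORA81, chr3:186504616-186504642, plus strand: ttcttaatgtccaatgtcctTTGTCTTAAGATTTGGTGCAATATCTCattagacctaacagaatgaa

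EIF4G1 (ENSG00000114867), the scaffold that joins the cap-binding protein to the helicase and to EIF3, was the only listed gene with a cluster in all 6 libraries. Of 20098 protein-coding genes, 11 had a cluster in every library by the same rule, or 0.0547%. All 6 libraries had their EIF4G1 cluster at the same place, in coding exon 10 of the 33 exons of the canonical transcript. The merged site was 27 nt long and lay 725 nt into an exon of 822 nt, with 70 nt left to the exon's end. Its first base was coding nucleotide 1423 of 4797.

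The bounds of the 6 clusters at this site differed by at most a few bases. The cluster ran from 184039798 to 184039821 in A1 replicate 1 and from 184039798 to 184039819 in A1 replicate 2. It ran from 184039795 to 184039819 in both A1-HMW libraries and in A1dm replicate 1, so 3 libraries from 2 bands had the same bounds. In A1dm replicate 2 it ran from 184039798 to 184039820. The 22 nt from 184039798 to 184039819 were common to all of them. The merged site held 2 T, at positions 6 and 26 counted from its 5′ end, and its longest unbroken run of A or G was 18 nt. The position at 26 lay beyond the end of 4 of the 6 clusters, and the T at position 6 was the one that every cluster covered. Among 5217 merged regions of protein-coding genes, 7 were found in all 6 libraries, and this was the only one of the 7 in a coding exon. The deposited annotation lists it as a transcript end.

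EIF4G1 held 2 further sites, both in introns. The site in intron 32, the last intron, lay 2199 nt after the exon before it and 418 nt before the final exon, and it had a cluster in A1 replicate 1, A1 replicate 2 and A1-HMW replicate 1. Its nearest annotated start is that of the neighbouring gene FAM131A, so it counted only by gene body. The site in intron 28, chr3:184047608-184047629, had a cluster in A1 replicate 2 alone, and its longest purine run was 9 nt. Neither A1dm library had a cluster at these intron sites. A1 therefore had 2 and 3 clusters in the EIF4G1 body, A1-HMW 2 and 1, and A1dm 1 in each library.

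**Figure D1:**
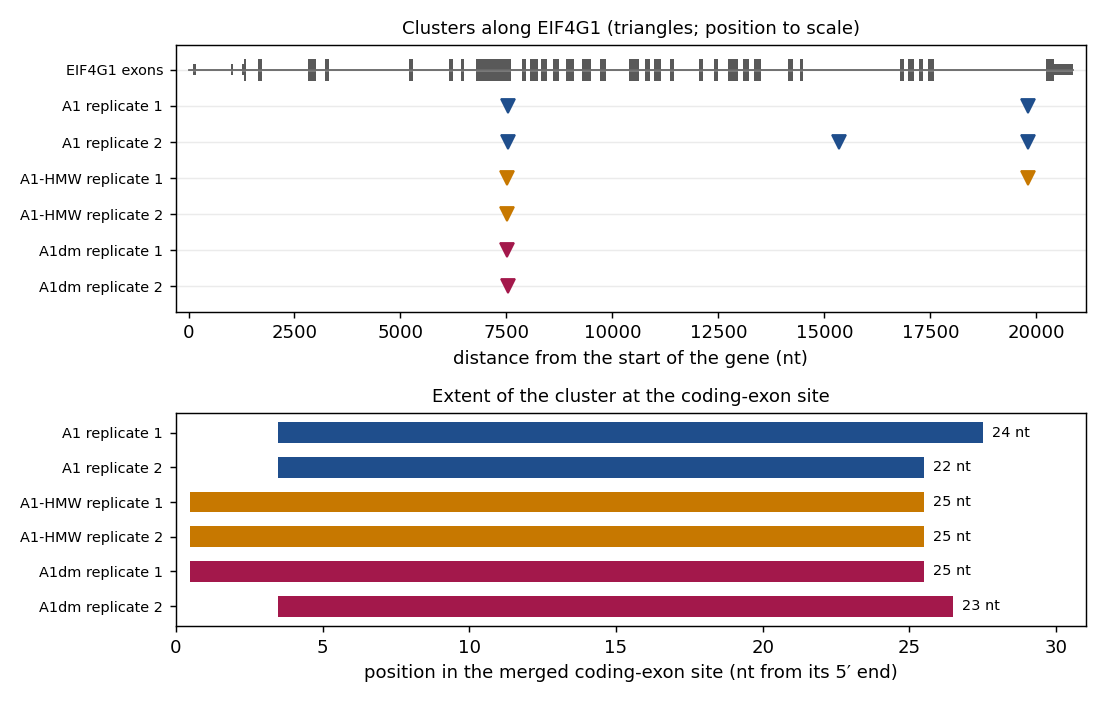
Upper panel: clusters (triangles) of each library along EIF4G1, with distance from the gene's start in nt and the exons of the canonical transcript as grey boxes (taller where coding). Lower panel: extent of each library's cluster within the 27 nt of the coding-exon site. All 6 libraries have a cluster in exon 10, 3 have one in intron 32 and only A1 replicate 2 has one in intron 28.

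The other cap-binding and unwinding genes had clusters mostly in the A1 libraries. EIF4G3, a paralog of EIF4G1, had 2 clusters by the rule in A1 replicate 1 and 1 in A1 replicate 2, and 4 and 3 by gene body, with none in the other libraries. Its sites in intron 14 and in intron 2 were found in both A1 libraries. A single A1 library held each of its remaining sites, in intron 24, at another place in intron 2 and in the 3′ UTR. The UTR site, GGGAGAGGGGAAAGAGAAAAAAAGGT at chr1:21133662-21133687 on the minus strand, had the longest purine run of all 29 sites, 25 nt, and was found in A1 replicate 1 alone. EIF4G3 spans 370994 nt, against a median of 23378.5 nt over the 50 genes.

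EIF4E3, a relative of the cap-binding protein, had 1 cluster in each A1 library but not at the same place. The site of A1 replicate 1 lay in intron 4 and that of A1 replicate 2 in intron 2, 9963 nt apart, and both also lie in an overlapping gene on the same strand (ENSG00000285708), so the transcript cannot be told from these lists. EIF4E2, a cap-binding homolog, had 1 intron site in A1 replicate 2, 110 nt from the nearest annotated exon. EIF4A3, a helicase of the exon junction complex, had 1 intron site in A1-HMW replicate 2 and no cluster in any other library. EIF4A1, EIF4B, EIF4G2 and EIF4H had no cluster in any library.

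EIF4E itself had no cluster in either A1 library. Its only site, in intron 1 and 208 nt from the nearest annotated exon, had a cluster with identical bounds in A1-HMW replicate 1 and A1dm replicate 2. It was counted by gene body, since its nearest start is that of a neighbouring gene. Of 7555 merged regions in the bodies of protein-coding genes, 6 had a cluster in both A1-HMW and A1dm and none in A1. EIF4A2, a helicase paralog of EIF4A1, had 1 cluster, in A1 replicate 1. The cluster lay in intron 7 of the canonical transcript and in an exon of 2 retained-intron transcripts. It overlapped SNORA81, a small nucleolar RNA encoded in the EIF4A2 gene at chr3:186504464-186504641 on the same strand, and reads of the host and of the small RNA cannot be told apart there.

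Of the 8 genes for scanning and start selection, 3 had clusters, against 17.1% of protein-coding genes in any library. EIF2S1, the alpha subunit of EIF2, had 1 cluster in each A1 library and none in the other 4. Both lay at the same site in intron 4, 1618 nt after the exon before it. EIF5B, the GTPase of subunit joining, had 1 cluster in each A1 library at the same site in intron 17, 565 nt after the preceding exon, and A1dm replicate 2 had a cluster in its coding exon 4 instead. That exon site was counted by gene body only, as its nearest start is that of TXNDC9. EIF5, the GTPase-activating protein for EIF2, had 1 cluster, in A1 replicate 2. Only 3 of its 23 nt lay in coding exon 8, at the exon's end, and the rest lay past the exon. The other genes of this group (EIF1, EIF1AX, EIF2A, EIF2S2 and EIF2S3) and the 5 EIF2B genes, which encode the exchange factor of EIF2, had no cluster.

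The EIF3 complex, the largest initiation factor, was represented by 13 genes, and 4 of them had a cluster by the rule, against the same 17.1%. Each was found in a single A1 library. EIF3L had 2 clusters in intron 3 in A1 replicate 1, with 479 nt between them. A1 replicate 2 had 1 cluster each in EIF3B, EIF3D and EIF3F. The EIF3B site in intron 11 lay 72 nt from the nearest annotated exon, and the EIF3D site in intron 12 lay 1064 nt from one. The EIF3F site lay in intron 1 of the canonical transcript and in an exon of 1 noncoding retained-intron transcript. By gene body, EIF3A, the largest subunit, had a cluster in coding exon 20 of 22 in A1dm replicate 1 and in no other library. No EIF3 gene had a cluster in A1-HMW, a band with a cluster in 3.1% of protein-coding genes by the rule and 4.56% by gene body.

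Of the 7 elongation factor genes, EEFSEC, which brings the selenocysteine tRNA to the ribosome, had the most clusters. It had 1 in each A1 library by the rule, at the same site in intron 2, and 2 and 3 by gene body. A site in intron 6 was found in both A1 libraries and another one, 2211 nt before it, in A1 replicate 2 alone. EEFSEC spans 255166 nt, and these intron sites lay 7500 to 14774 nt from the nearest exon. EEF1D, a subunit of the exchange factor for EEF1A1, had 1 intron cluster in A1 replicate 2. EEF1A2, a paralog of EEF1A1 known from neurons and muscle, had 1 cluster, in A1dm replicate 1. It lay in intron 6 of the canonical transcript, 64 nt after the exon before it, and in an exon of 1 retained-intron transcript. EEF1A1, EEF1B2, EEF1G and EEF2 had no cluster, and neither had the 3 genes for EIF4E-binding proteins or EIF5A, EIF5A2 and EIF6.

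**Figure D2:**
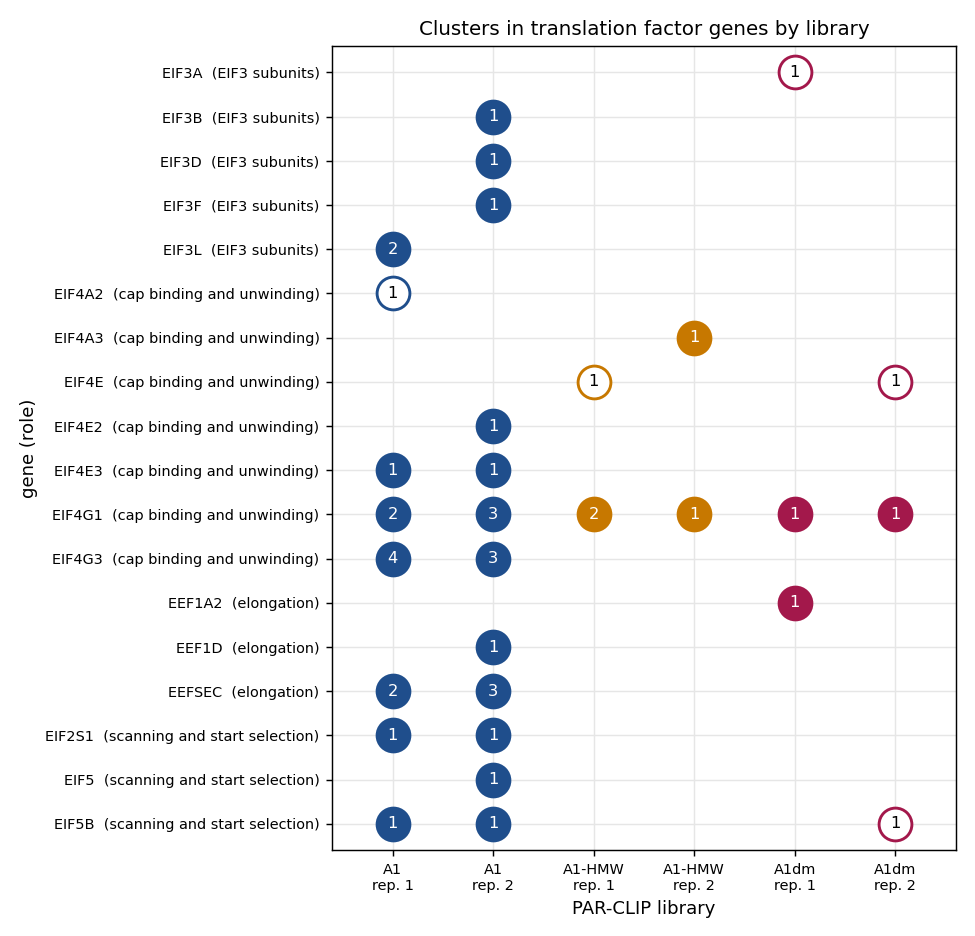
Clusters per library (columns) in the 18 listed genes (rows, with their role) that held any. The number in each circle is the count by gene body, and a circle is filled where at least 1 of those clusters also met the nearest-start rule. EIF4G1 is the only row with a circle in every column.

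By library, the A1 clusters lay in 7 and 12 of the 50 genes, the A1-HMW clusters in 1 and 2, and the A1dm clusters in 2 and 1. In either A1 library 13 of the 50 genes had a cluster, or 26%, against 16.1% of all protein-coding genes. In both A1 libraries 6 genes did, or 12%, against 7.98%. In A1-HMW the count was 2 of 50, against 3.1% of protein-coding genes, and in A1dm it was also 2 of 50, against 2.02%. These shares were not tested. Without A1 replicate 2 the count for A1 was 7 genes, and it was 1 gene, EIF4G1, for A1-HMW without replicate 2 and for A1dm without replicate 1. By gene body 14 genes had a cluster in either A1 library, or 28%, against 21.7% of protein-coding genes. By that count 6 genes had one in both A1 libraries, or 12%, against 11.3%, so the 2 shares were close. The A1-HMW count by gene body was 3 genes, or 6%, against 4.56%. For A1dm it was 5 genes, with EIF3A, EIF4E and EIF5B added to EIF4G1 and EEF1A2, against 2.82% of protein-coding genes.

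Over all protein-coding genes, the share with an A1 cluster was higher in the longer classes. By gene body 1 of 10 listed genes under 10000 nt had an A1 cluster, against 3.71% of protein-coding genes of that length. The counts were 6 of 23 from 10000 to 30000 nt, against 13.7%, and 5 of 12 from 30000 to 100000 nt, against 29.4%. Above 100000 nt it was 2 of 5, against 46.8%. Counts in each class were small. The median length was 23378.5 nt for the listed genes and 27256.5 nt for all protein-coding genes. Over their summed length of 2.24 Mb, clusters in the gene bodies numbered 6.24 and 8.02 per Mb in the A1 libraries, against 2.96 and 3.89 over the bodies of all protein-coding genes. In A1-HMW the densities were 1.34 and 0.891 per Mb, against 0.362 and 0.441, and in A1dm 1.34 in each library, against 0.126 and 0.304. Those A1-HMW and A1dm densities rest on 2 or 3 clusters a library.

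To ask whether the bands differed in how much of their binding fell in these genes, the share of clusters was compared over libraries. It was 0.155% and 0.160% in the A1 libraries, with 95% Wilson intervals of 0.0816 to 0.294% and 0.0938 to 0.274%. In A1-HMW it was 0.149% (0.0263 to 0.839%) and 0.231% (0.0634 to 0.839%), and in A1dm 0.862% (0.237 to 3.09%) and 0.168% (0.0296 to 0.944%). Both A1dm libraries lay above both A1 libraries, and the intervals of all 6 libraries by the rule overlapped. By gene body the interval of A1dm replicate 1, 0.441 to 3.73%, lay above those of both A1 libraries. The latter were 0.144 to 0.404% in replicate 1 and 0.141 to 0.351% in replicate 2. Intervals cover counting error only.

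The mean share was 0.158% ± 0.00386 (SD, n = 2) for A1, 0.190% ± 0.0581 for A1-HMW and 0.515% ± 0.491 for A1dm. The difference between A1dm and A1 was 0.357 percentage points (exact two-sided permutation test, p = 0.333), which is the smallest p that 2 libraries against 2 can give, so no comparison here could pass a threshold of 0.05. Between A1-HMW and A1 it was 0.0324 points (exact permutation p = 1), and between A1dm and A1-HMW 0.325 points (exact permutation p = 0.667). With Benjamini-Hochberg adjustment over 6 comparisons, these and the 3 on intron position below, no adjusted value was under 0.667. Without A1dm replicate 1, which held 232 clusters, the difference from A1 was 0.0100 points. By gene body the difference between A1dm and A1 was 0.667 points and that between A1-HMW and A1 0.107 points. As a share of the clusters in protein-coding genes, the values were 0.315% and 0.351% for A1 and 1.48% and 0.316% for A1dm, and these ranges overlapped.

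**Figure D3:**
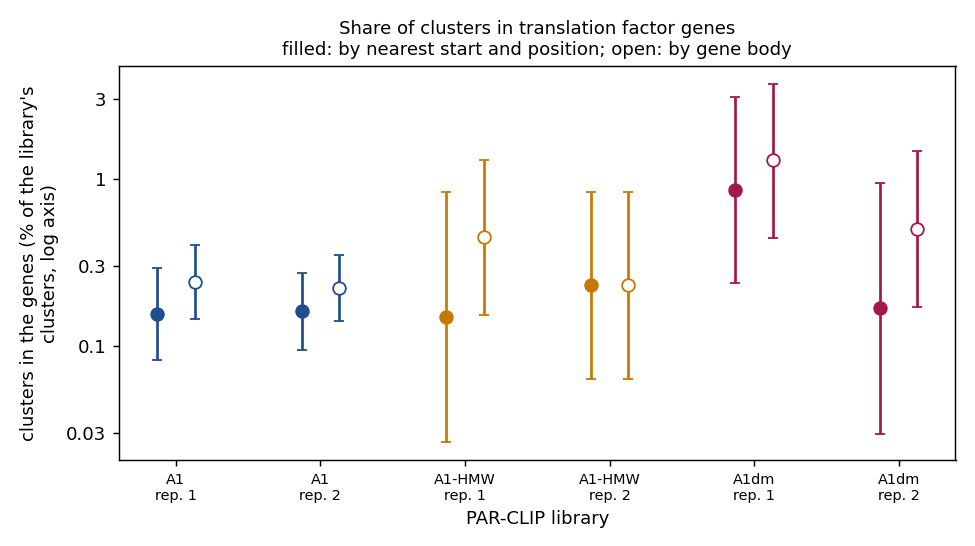
Share of each library's clusters (log axis, percent) that lay in the listed genes, by the nearest-start rule (filled) and by gene body (open), with 95% Wilson intervals for counting error. A1dm replicate 1 is the highest by both counts, and its interval by the rule, 0.237 to 3.09%, overlaps those of the other 5 libraries. By gene body its interval, 0.441 to 3.73%, lies above those of A1 replicate 1 (0.144 to 0.404%) and A1 replicate 2 (0.141 to 0.351%).

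Position within the gene was compared next. By the rule 8 of 9 and 10 of 13 clusters were intronic in the A1 libraries, 0 of 1 and 1 of 2 in A1-HMW, and 0 of 2 and 0 of 1 in A1dm. The mean intronic share was 82.9% ± 8.46 (SD, n = 2) for A1, close to the 82.6% and 83.5% over all clusters in protein-coding genes in these libraries. It was 25% ± 35.4 for A1-HMW and 0% in both A1dm libraries, where the Wilson upper limits were 65.8% and 79.3%. The EEF1A2 cluster of A1dm replicate 1 counted as exonic only through 1 retained-intron transcript. It lay in an intron of the canonical transcript and is listed as intronic in the deposited annotation. The same holds for the EIF3F cluster of A1 replicate 2. Over all protein-coding genes the intronic share was 78.9% and 81.5% in A1-HMW, and 62.2% and 62.3% in A1dm.

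The A1 libraries did not overlap with those of the other bands in intronic share. The difference was -82.9 points for A1dm against A1 and -57.9 points for A1-HMW against A1 (exact permutation p = 0.333 for each, the smallest possible). A1dm and A1-HMW differed by -25 points (exact permutation p = 1). These values rest on 3 clusters per band in A1-HMW and A1dm, and in each band 2 of the 3 were the same EIF4G1 exon site. By gene body the intronic counts were 11 of 14 and 15 of 18 in A1, 2 of 3 and 1 of 2 in A1-HMW, and 0 of 3 and 1 of 3 in A1dm, and the difference between A1-HMW and A1 was -22.6 points. It was -32.9 points by the rule without A1-HMW replicate 1. With introns as the deposited annotation gives them, both bands differed from A1 by -44.7 points.

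Counted as sites, 15 of the 19 by the rule were intronic, 2 lay in coding exons and 2 in exons of noncoding transcripts only. A1 had a cluster at 14 of the intron sites, A1-HMW at 1 and A1dm at none. Over the 29 sites by gene body, 21 were intronic and 4 lay in coding exons, 1 in a UTR exon and 3 in noncoding exons. A1dm had a cluster at 3 of the 4 coding-exon sites, those of EIF4G1, EIF3A and EIF5B, while A1 had one at EIF4G1 and at the end of the EIF5 exon. The share of clusters in coding exons over all protein-coding genes was 22.2% and 17.7% in A1dm and 6.96% and 6.83% in A1. The intron sites by the rule lay 72 to 7500 nt from the nearest annotated exon, with a median of 1109 nt, and 2 of the 15 lay within 300 nt of one.

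Recurrence between replicates was counted by overlap. Of the clusters of A1 replicate 1 in these genes 5 of 9 overlapped a cluster of A1 replicate 2, against 60.5% over protein-coding genes. In the other direction 5 of 13 did, against 46.7%. The 5 sites were those in EIF4G1 exon 10, EIF2S1 intron 4, EIF4G3 intron 14, EIF5B intron 17 and EEFSEC intron 2. By gene body there were 8. In A1-HMW and in A1dm the EIF4G1 exon site was the only one found in both replicates. Over protein-coding genes, 25.48% and 21.55% of A1-HMW clusters recurred in the other replicate, and 14.07% and 6.013% of A1dm clusters did. Of the 19 sites 16 were found in A1 alone, 1 in all bands and 2 in no A1 library, those of EIF4A3 and EEF1A2. The A1 lists were by far the longest, and the same split over all protein-coding regions is not given here. Over protein-coding genes, 74.79% and 77.75% of A1-HMW clusters overlapped an A1 cluster, as did 60% and 51.58% of A1dm clusters.

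The sequences printed above were mostly runs of A and G. The share of A and G over the 19 sites ran from 52.2 to 92.6%, with a median of 88.9%, and 16 of the 19 held an unbroken run of at least 12 purines, as did 24 of the 29 by gene body. The median longest run was 19 nt. By library, 8 of 9 and 11 of 13 clusters by the rule held such a run in A1, against 98.1% and 96.6% of all clusters of those libraries. In A1-HMW 1 of 1 and 2 of 2 did, against 84.5% and 87.0%, and in A1dm 1 of 2 and 1 of 1, against 67.3% and 58.2%.

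GAGGAA, searched on the sense strand, lay in 4 of the 19 sites and 6 of the 29. It began at position 19 of the EIF4G1 exon site. Over all clusters it was present in 34.2% and 33.1% in A1, 30.1% and 34.3% in A1-HMW, and 18.1% and 22.4% in A1dm. TAGGG, which holds the AG core, lay in 1 site, that of EIF3F, against 2.21% and 2.41% of all A1 clusters. The sites that stood apart were EIF4A2 at 40.7% A and G, EIF5 at 52.2% and EEF1A2 at 59.1%, each with a longest run of 4 nt, and EIF4E at 76.0% with a run of 11 nt. Both coding-exon sites seen only in A1dm were purine-rich, with 91.3% in EIF3A and 87.5% in EIF5B.

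**Figure D4:**
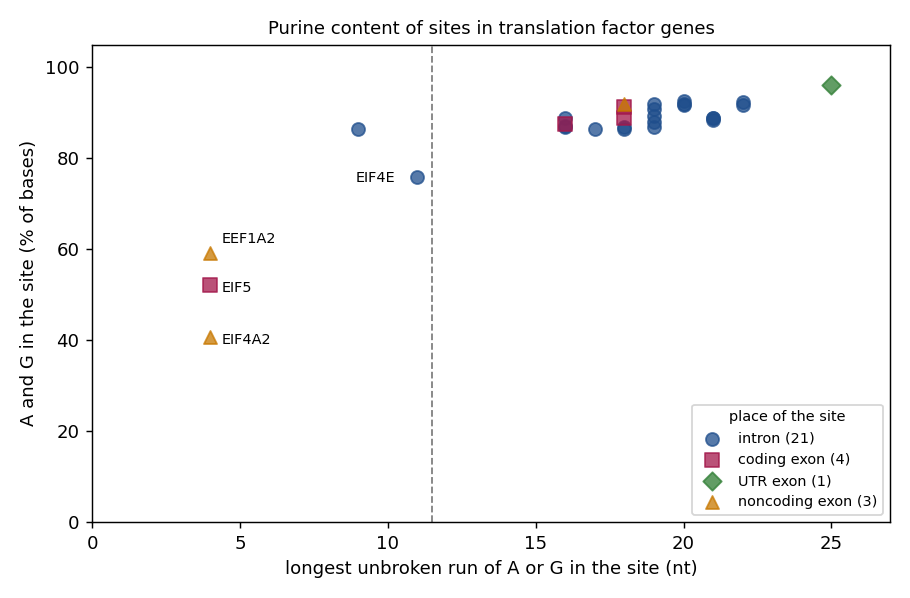
Percent of A and G against the longest unbroken purine run (nt) for the 29 sites by gene body, with a marker for the place of each site in its gene. Right of the dashed line are the 24 sites with a run of at least 12 nt. The others are the EIF4A2, EIF5, EEF1A2 and EIF4E sites and the intron 28 site of EIF4G1.

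A second list of 35 genes, with regulators, release factors and cap-complex partners of translation, was examined in the same way, and 34 of them are in the annotation. An A1 cluster was found in 10 of the 34, or 29.4%, against 16.1% of protein-coding genes. An A1-HMW cluster was found in 4, or 11.8%, against 3.1%, and an A1dm cluster in 2, or 5.88%, against 2.02%. These shares were not tested either, and the list was drawn up with earlier results of these data known, which named EEF1E1. LARP1, which binds mRNAs of the translation machinery, had a site in coding exon 4 of 19 with a cluster in both A1 libraries, A1-HMW replicate 1 and A1dm replicate 2. A1dm replicate 2 had a further cluster in the same exon. HBS1L, a ribosome-rescue GTPase, had an intron 2 site in both A1 and both A1-HMW libraries and a site in coding exon 8 of 18 in A1 replicate 2 and A1dm replicate 1. GSPT1, a release factor, had an intron 1 site in both A1 libraries and a cluster in coding exon 4 of 15 in A1-HMW replicate 1. In EEF1E1, a protein of the aminoacyl-tRNA synthetase complex, all 3 clusters were from A1-HMW, 1 in replicate 1 and 2 in replicate 2, at 3 places in introns.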

How the data were processed

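PAR-CLIP was done by the authors in HEK293T cells, with 2 libraries for each of A1, A1-HMW and A1dm. Per the methods, adapters were removed with BBduk, ribosomal RNA was filtered off and reads were mapped with STAR, while the submitters' processing notes name Bowtie and hg19. Per the file headers, the deposited lists hold wavClusteR clusters, called per library and annotated by HOMER with Ensembl release 87 genes. The deposited score was 0 in every line. Versions of these callers are not given in the sources used here.

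Members and lists were chosen with earlier results of these data known. The cluster start was taken from the identifier, which lies 1 nt below the start column in 100% of the lines. Clusters were placed on GENCODE 44 genes lifted to hg19, in the order coding exon, UTR exon, noncoding exon, intron, and sequence was read from the GRCh37 reference, the same build. Clusters sharing at least 1 nt on a strand were merged into sites. Every listed gene with a cluster is named, and sites found in at least 2 libraries, or in exons, are described. Shares were compared by exact permutation tests (scipy 1.17.1, Python 3.11.15, pysam 0.24.0), with 95% Wilson intervals. Placement, merging and overlap were tested on simulated data. The paper describes 2 independent experiments, which together covered every band. Same-numbered libraries showed little joint deviation (correlations over 3434 genes of 0.0134, -0.0159 and -0.00390). These correlations cannot exclude a shared experiment, and numbers were not treated as pairs in the main tests. A replicate block, which does pair them, is among the alternatives. Alternatives are given in the closing section.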

Additional observations from a re-analysis of the deposited data

Results flagged for a closer look

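The nearest start also named 10 clusters for EIF3H, an EIF3 subunit gene, that lay outside the gene, in data left out of the comparisons. They merged into 7 regions, of which 3 were found in 2 libraries. A1 replicate 1 held 5 of the clusters, A1 replicate 2 held 4 and A1-HMW replicate 2 held 1. Of the 7 regions, those on the strand of EIF3H lay 11109 to 93860 nt past its end, where no gene is annotated on that strand, and the remaining one lay in an intron of UTP23 on the other strand. EIF3H had no cluster in its body in any library.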

How the results depend on the processing

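Of 80 recomputed values, 70 kept their direction or stayed within 1.5 times of a count or within the replicate spread. The numbers of clusters set the precision, and no alternative could bring a test past its threshold. With a replicate block, in which signs were permuted within a number, the differences were as before (share 0.357 points for A1dm minus A1, exact p = 0.5), and no call changed. The share difference of A1-HMW minus A1 ranged from -0.00873 to 0.0735 points when 1 replicate was left out, turning sign without A1-HMW replicate 2. That of A1dm minus A1-HMW ranged from -0.0223 to 0.672 points, turning sign without A1dm replicate 1. That of A1dm minus A1 ranged from 0.0100 to 0.704 points. The intronic difference of A1dm minus A1-HMW was 0 points with introns as the authors' annotation gives them, and -50.0 to 0 points with a replicate left out. Genes with a cluster numbered 7 to 12 in A1, 1 to 2 in A1-HMW and 1 to 2 in A1dm with a replicate left out, and 5 in A1dm by gene body. Sites in both A1 replicates numbered 8 by gene body. With a run of 8 purines, 96.2% of A1 clusters held one on average, against 86.8% with 12. The cause of these changes was not tested.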

Other observations

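Of the other 4 clusters named for a listed gene but lying outside it, 2 formed 1 region, 347 nt past the end of EIF3F, found in both A1 libraries. A1 replicate 2 had 1 cluster in an intron of DRG1, on the strand opposite to EIF4ENIF1. A1dm replicate 2 had 1 cluster named for EEF1G that lay in a coding exon of TUT1.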
